A study of Mus musculus with 32 samples.

Results

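The immediate early genes of this report are 10 transcripts taken by name from a list of AP-1 and EGR genes: Egr1, Fos, Fosb, Jun, Junb, Jund, Atf3, Ier2, Ier3 and Btg2. All 10 had a probe set on the array, among 22180 genes with 1 symbol. They were measured in liver RNA of 32 male wild-type C57BL/6NTac mice aged 14 weeks, on 1 Affymetrix Mouse Gene 2.1 ST array per mouse. Every mouse had fasted for 10 h before the gavage. The control groups received water and the palm oil groups received palm oil at 2 g/kg of body mass. Basal mice (7 control, 9 palm oil) were killed under isoflurane 6 h after the gavage. Clamped mice (7 control, 9 palm oil) carried a jugular vein catheter, placed 6 to 7 days earlier under ketamine and xylazine. From 6 h after the gavage they received labelled glucose for 110 min. Insulin at 15 pmol/kg/min was then infused with glucose adjusted to reach a target glycaemia, and labelled 2-deoxyglucose was injected. They were killed by intravenous ketamine and xylazine. Insulin, the infused glucose and tracers, the catheter, the later time of killing and the anaesthetic all separate clamped from basal mice. So do the animal numbers, which ran from 15 to 32 in clamped and from 33 to 52 in basal mice. The parts of all these in a clamped minus basal difference cannot be told apart.

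Immediate early genes are transcribed within minutes of a stimulus from factors already present in the cell, without new protein synthesis. Serum response factor with its ETS partners and CREB, activated by MAP kinases or cyclic AMP, are the best known drivers, and the transcripts are short-lived. FOS and JUN proteins pair through leucine zippers to form AP-1, and EGR1 is a zinc finger factor that binds GC-rich sites. In liver these genes are known for their rapid rise after partial hepatectomy, at the start of regeneration, and after insulin, growth factors, cytokines or injury.

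Promoter windows are shown first, searched for motifs that AP-1, EGR, ATF and CREB proteins or serum response factor are known to bind. RefSeq windows (build GRCm38.p6, 250 bases before to 50 after the start site) matched 8 of the 10 genes, all but Egr1 and Ier2. Of 32851 such windows, 20.8% held the CRE half-site TGACG, which ATF and CREB proteins bind, on either strand, as did those of Fos, Fosb, Junb, Atf3 and Btg2. The full CRE TGACGTCA, which contains the half-site on both strands, was in 1.79% of windows and in that of Btg2. The AP-1-like sites TGACATCA and TTACCTCA, in 3.62% and 0.889% of windows, are those of the Jun gene itself. That the Jun window held both was therefore given by the choice of motifs and is no finding. The EGR motif GCGNGGGCG was in 5.55% of windows and in those of Fosb and Btg2. The AP-1 motif TGANTCA (7.81% of windows) and the CArG box of serum response factor (1.63%) were in none of the 8. Bases farther upstream, and the promoters of Egr1 and Ier2, were not searched. A gene without a match here may hold one elsewhere. The windows of Jund and Ier3 held none of these motifs. Windows are shown for the genes that held a match, except Fosb. Capitals mark any of these motifs in the windows of the 5 genes shown, 5′ to 3′ on the strand of the gene.
Fos (chr12:85473640-85473939, plus strand): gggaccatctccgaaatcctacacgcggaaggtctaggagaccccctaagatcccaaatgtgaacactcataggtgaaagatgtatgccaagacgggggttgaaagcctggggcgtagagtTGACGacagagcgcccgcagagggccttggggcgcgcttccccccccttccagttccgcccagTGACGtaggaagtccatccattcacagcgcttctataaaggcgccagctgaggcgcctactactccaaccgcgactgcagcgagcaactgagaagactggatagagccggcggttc
Jun (chr4:95052173-95052472, minus strand): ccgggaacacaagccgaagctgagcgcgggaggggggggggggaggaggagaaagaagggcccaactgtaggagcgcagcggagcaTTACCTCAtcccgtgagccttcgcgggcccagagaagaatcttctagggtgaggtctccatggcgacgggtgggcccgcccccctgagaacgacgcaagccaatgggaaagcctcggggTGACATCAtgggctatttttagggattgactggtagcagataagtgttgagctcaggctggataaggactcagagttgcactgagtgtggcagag
Junb (chr8:84978699-84978998, minus strand): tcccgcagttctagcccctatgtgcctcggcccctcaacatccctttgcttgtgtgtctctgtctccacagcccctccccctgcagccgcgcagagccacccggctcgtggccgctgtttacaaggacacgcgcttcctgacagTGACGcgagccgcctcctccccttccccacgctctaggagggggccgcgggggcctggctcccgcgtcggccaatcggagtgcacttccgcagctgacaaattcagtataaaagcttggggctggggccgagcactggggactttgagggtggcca
Atf3 (chr1:191183284-191183583, minus strand): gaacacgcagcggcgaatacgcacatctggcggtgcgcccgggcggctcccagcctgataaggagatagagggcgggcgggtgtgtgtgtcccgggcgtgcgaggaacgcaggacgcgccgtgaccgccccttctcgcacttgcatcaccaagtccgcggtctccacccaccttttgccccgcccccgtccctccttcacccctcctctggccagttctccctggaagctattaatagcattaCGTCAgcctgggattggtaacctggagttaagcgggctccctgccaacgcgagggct
Btg2 (chr1:134079106-134079405, minus strand): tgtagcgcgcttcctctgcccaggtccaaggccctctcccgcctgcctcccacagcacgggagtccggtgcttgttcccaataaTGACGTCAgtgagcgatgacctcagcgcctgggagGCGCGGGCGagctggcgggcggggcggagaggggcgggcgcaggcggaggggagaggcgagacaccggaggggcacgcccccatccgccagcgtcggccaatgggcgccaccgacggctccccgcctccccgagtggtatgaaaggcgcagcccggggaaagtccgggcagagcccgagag
In the Btg2 window the CRE lay at positions -166 to -159 from the first transcribed base. In the Fos window the half-sites began at -129 and -66, and in the Jun window the AP-1-like sites began at -164 and -45. These are matches of letters, and binding was not measured.

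Levels are the authors' deposited log2 values, in which a difference of 1 is a 2-fold difference in signal. Differences are from limma, as log2 ± SE, and a gene rose or fell where its p, adjusted by the Benjamini-Hochberg method over 22180 genes, was under 0.05. In bulk liver, fewer cells of a type and less RNA per cell cannot be told apart. The median log2 value over all genes was 1.83. Low values near it are compressed towards the background, which applies to Fosb in all groups and to Fos and Atf3 in basal mice. Folds, and the order of the genes by their rise, are therefore those of array signal, and the folds of Fos and Atf3 may understate those of their RNA.

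The array signal of 9 of the 10 genes was higher in clamped than in basal livers, whether the mice had received water or palm oil. Fosb, too dim for its RNA to be judged, did not pass under either treatment. In control mice 9 rose and 0 fell, where 4.66% of all genes rose. The median difference of the 10 was 2.35, against -0.02 over all genes. In palm oil mice 9 rose and 0 fell, where 3.76% of all genes rose, with a median of 2.16 against -0.02. Every clamped value lay above every basal value for 6 of the 10 genes in each comparison, where 1.39% of all genes did so in control and 0.866% in palm oil mice. Egr1, Jun, Junb and Btg2 did so in both, Jund and Ier3 in control mice, and Fos and Ier2 in palm oil mice. The 10 genes were chosen with earlier results of these data known, so their counts beside the shares of all genes are descriptions.

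**Figure D1:**
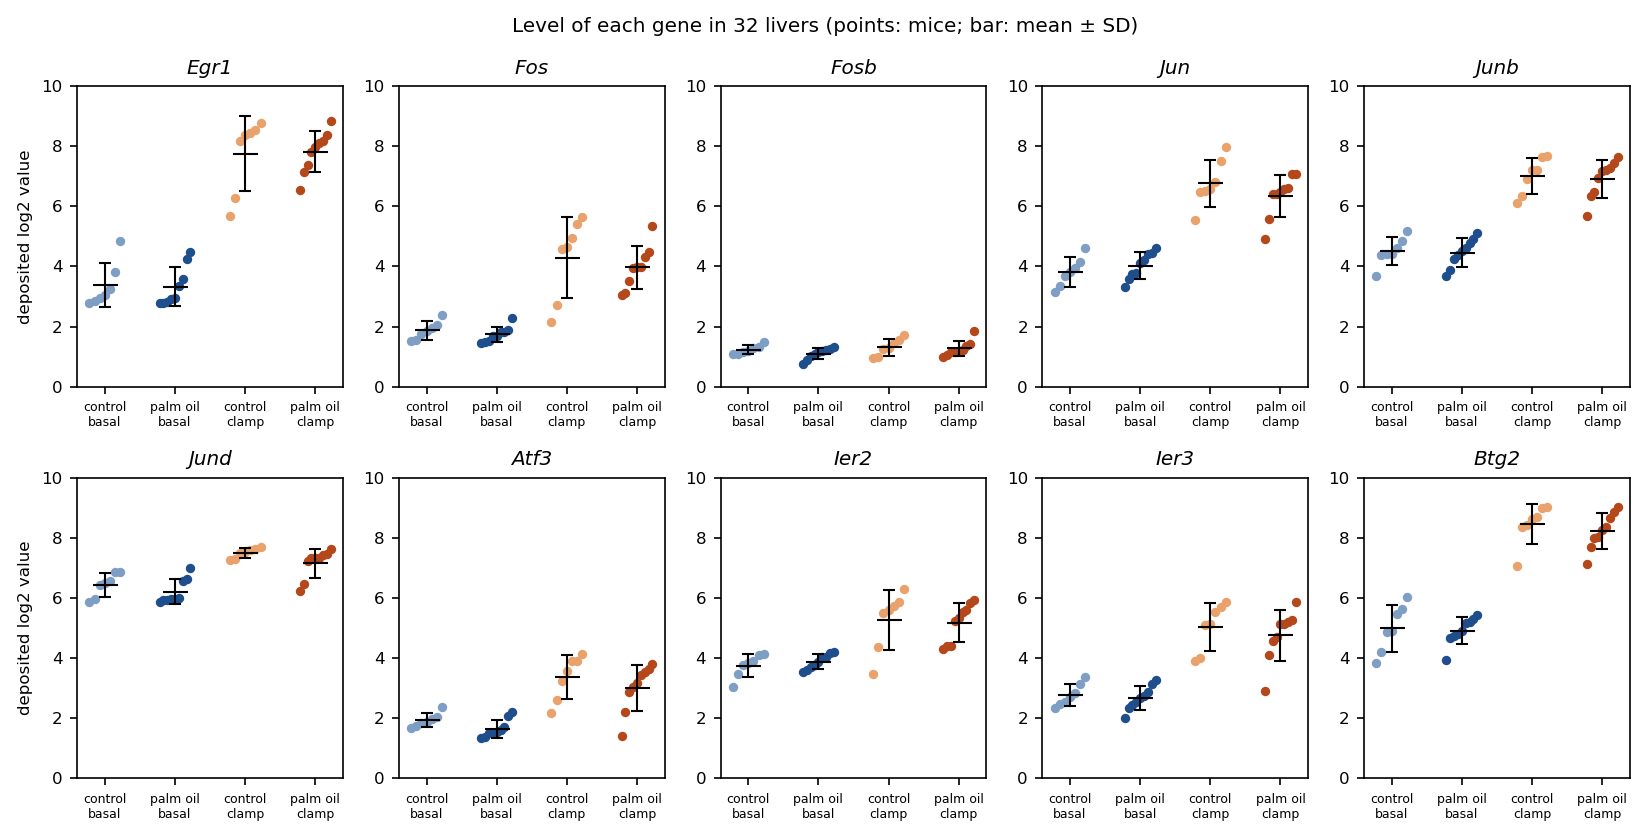
Deposited log2 value of each gene in each of 32 mice, by group, with 1 panel per gene and the same axis from 0 to 10; points are mice, horizontal marks are means and bars 1 SD. Both clamped means lie well above both basal means in 9 panels, single mice overlap in those of Fos, Jund, Atf3, Ier2 and Ier3, and in that of Fosb the groups overlap throughout.

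Egr1, the zinc finger factor, had the largest rise in array signal of the 10. Its log2 values ran from 2.79 (median 3.06) to 4.84 in control basal mice and from 2.77 (median 2.94) to 4.48 in palm oil basal mice. In clamped mice they ran from 5.68 (median 8.37) to 8.78 in control and from 6.55 (median 7.97) to 8.85 in palm oil mice. No clamped value overlapped a basal one. The rise was 4.38 ± 0.41 in control mice (20.8-fold, 95% interval 11.7 to 37.2, n = 7 and 7) and 4.50 ± 0.36 in palm oil mice (22.6-fold, 13.5 to 37.6, n = 9 and 9). Basal mice were not uniformly low. Control basal replicate 2 (4.84) and palm oil basal replicates 1 (4.48) and 9 (4.26) stood above the other basal mice, whose highest value was 3.81. In the clamped control mice, replicates 6 (6.26) and 7 (5.68) lay below the other 5, which ran from 8.17 to 8.78.

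Fos and Fosb encode FOS proteins, which pair with JUN proteins and do not pair with each other. Fos log2 values were 1.53 to 2.39 (median 1.87) in control basal and 1.47 to 2.29 (median 1.70) in palm oil basal mice. After the clamp they were 2.15 to 5.64 (median 4.64) in control and 3.04 to 5.34 (median 3.98) in palm oil mice. All 9 palm oil clamped mice stood above the palm oil basal mice, and 6 of 7 control clamped mice above the control basal mice, the exception being replicate 6. Fos rose by 2.42 ± 0.37 in control mice (limma adjusted p = 2.50e-05) and by 2.22 ± 0.33 in palm oil mice (1.17e-05). Fosb ranged from 0.76 to 1.51 in basal and from 0.95 to 1.85 in clamped mice, and the groups overlapped throughout. Its difference was 0.08 ± 0.12 in control mice (interval -0.17 to 0.33, limma adjusted p = 0.793) and 0.18 ± 0.11 in palm oil mice (-0.04 to 0.39, 0.417). At these dim values the intervals bound a change in array signal, not in RNA.

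Jun, Junb and Jund encode the JUN proteins. JUND is known as the member present in resting cells, and JUNB as one that can restrain the activity of JUN. Jun log2 values were 3.16 to 4.60 (median 3.83) in control basal, 3.33 to 4.62 (median 4.13) in palm oil basal, 5.56 to 7.96 (median 6.58) in control clamped and 4.91 to 7.08 (median 6.49) in palm oil clamped mice. No clamped value of Jun overlapped a basal one. Its rise was 2.95 ± 0.30 in control mice (7.73-fold) and 2.32 ± 0.27 in palm oil mice (5.002-fold), the widest gap between the 2 pairs of groups among the 10 genes. The difference between these rises did not pass the test (interaction -0.63 ± 0.40, interval -1.45 to 0.19, limma adjusted p = 1.00).

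Junb log2 values were 3.70 to 5.18 (median 4.43) in control basal, 3.70 to 5.13 (median 4.53) in palm oil basal, 6.10 to 7.67 (median 7.22) in control clamped and 5.69 to 7.64 (median 7.18) in palm oil clamped mice. The basal and clamped mice did not overlap. Junb rose by 2.50 ± 0.27 in control mice (5.66-fold) and by 2.45 ± 0.24 in palm oil mice (5.45-fold). Jund had the smallest rise in array signal of the 9 genes that rose. Its log2 values were 5.85 to 6.85 (median 6.51) in control basal, 5.85 to 6.99 (median 5.97) in palm oil basal, 7.24 to 7.70 (median 7.52) in control clamped and 6.22 to 7.62 (median 7.34) in palm oil clamped mice. Control mice did not overlap, and palm oil clamped replicates 1 (6.45) and 2 (6.22) lay within the palm oil basal range. Jund rose by 1.07 ± 0.20 in control mice (2.10-fold, limma adjusted p = 3.49e-04) and by 0.95 ± 0.18 in palm oil mice (1.93-fold, 3.30e-04). A second, dimmer Jund probe set, not used in the fit, differed between group means by 0.60 in control and 0.67 in palm oil mice.

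Atf3 encodes a stress-induced bZIP factor that binds CRE and AP-1 sites and often represses. Its log2 values were 1.69 to 2.38 (median 1.88) in control basal, 1.34 to 2.20 (median 1.53) in palm oil basal, 2.16 to 4.14 (median 3.58) in control clamped and 1.39 to 3.80 (median 3.19) in palm oil clamped mice. The ranges touched through 1 mouse in each comparison, control clamped replicate 6 (2.16) and palm oil clamped replicate 2 (1.39). Atf3 rose by 1.43 ± 0.28 in control mice (2.69-fold in array signal, limma adjusted p = 7.28e-04) and by 1.36 ± 0.25 in palm oil mice (2.57-fold, 2.77e-04).

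Ier2 and Ier3 are early response genes outside the bZIP and zinc finger families. IER2 is a nuclear protein and IER3 (IEX-1) is linked to cell survival. Ier2 log2 values were 3.04 to 4.13 (median 3.83) in control basal, 3.53 to 4.20 (median 3.85) in palm oil basal, 3.46 to 6.30 (median 5.58) in control clamped and 4.28 to 5.94 (median 5.33) in palm oil clamped mice. Of the control clamped mice, replicate 7 (3.46) alone lay within the control basal range. Ier2 rose by 1.51 ± 0.30 in control mice (2.84-fold, limma adjusted p = 9.55e-04) and by 1.29 ± 0.27 in palm oil mice (2.44-fold, 0.00133). Ier3 log2 values were 2.33 to 3.37 (median 2.70) in control basal, 2.01 to 3.27 (median 2.68) in palm oil basal, 3.91 to 5.86 (median 5.13) in control clamped and 2.91 to 5.85 (median 5.12) in palm oil clamped mice. Palm oil clamped replicate 2 (2.91) was the only clamped mouse within a basal range of its own treatment. Ier3 rose by 2.27 ± 0.32 in control mice (4.82-fold) and by 2.09 ± 0.28 in palm oil mice (4.25-fold).

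Without the 12 arrays high in pancreatic acinar transcripts, Atf3 and Ier2 no longer passed. Atf3 then differed by 1.35 ± 0.45 in control (limma adjusted p = 0.0980) and by 1.15 ± 0.40 in palm oil mice (0.144). Ier2 differed by 1.496 ± 0.45 in control (0.0612) and by 1.17 ± 0.40 in palm oil mice (0.130). With fewer arrays these SEs were larger than those given above, and the cause of the lost calls was not tested. The Ier2 rise in control mice also failed to pass without 7 basal arrays, those of animals whose number was 44 or above. It was then 1.248 ± 0.42 (limma adjusted p = 0.0986), with 3 control basal mice left. In the exact rank sum test its adjusted p was 0.157 in control mice.

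Btg2, an antiproliferative gene that is also a target of p53, had the second largest rise in array signal of the 10. Its log2 values were 3.84 to 6.03 (median 4.89) in control basal, 3.94 to 5.42 (median 4.90) in palm oil basal, 7.07 to 9.02 (median 8.63) in control clamped and 7.12 to 9.02 (median 8.25) in palm oil clamped mice. Clamped and basal mice were fully apart. Btg2 rose by 3.46 ± 0.31 in control mice (11.03-fold, 95% interval 7.166 to 16.99) and by 3.32 ± 0.27 in palm oil mice (9.98-fold, 6.82 to 14.6).

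**Figure D2:**
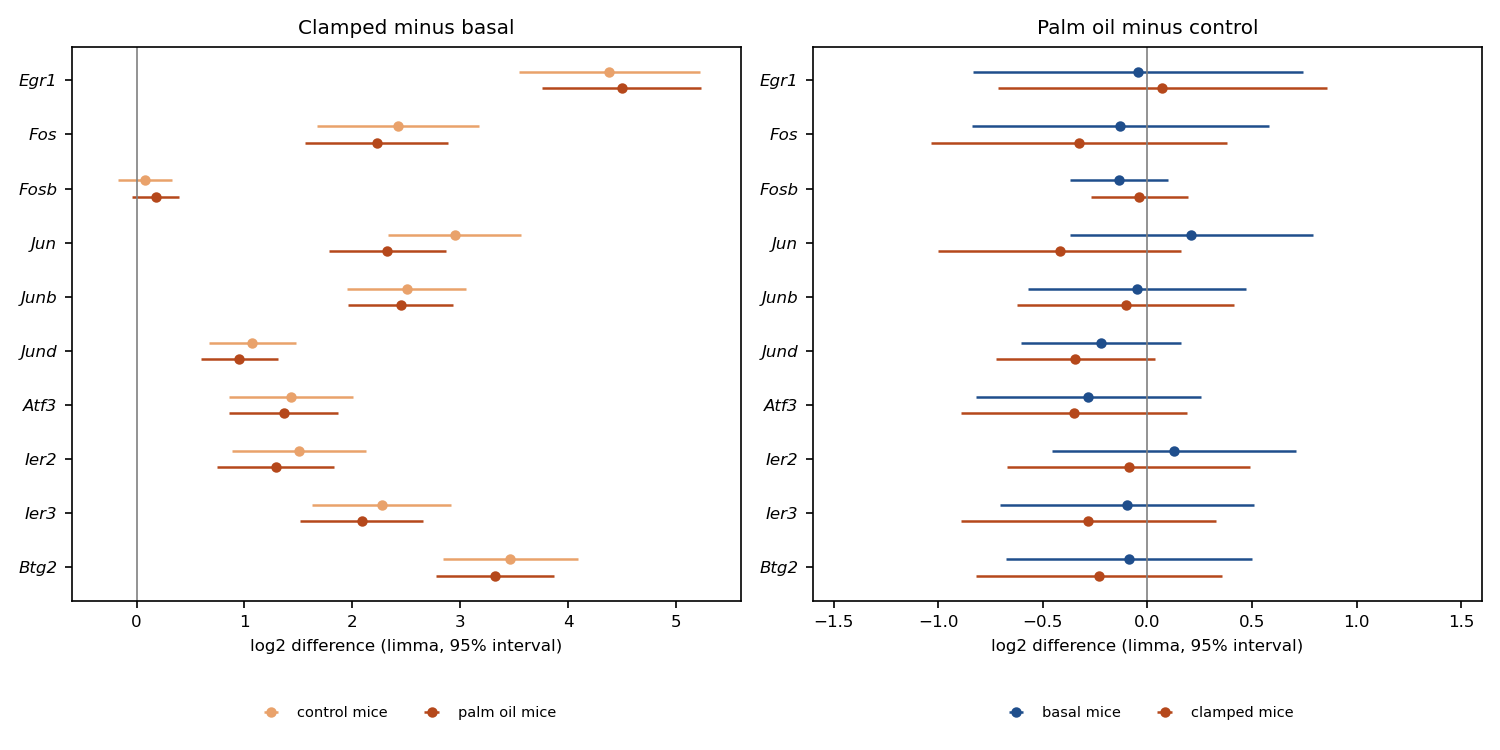
Log2 difference of each gene from the limma fit with its 95% interval: clamped minus basal on the left (control and palm oil mice) and palm oil minus control on the right (basal and clamped mice), on axes of different range. All intervals of the 9 genes that rose lie above 0 on the left, and every interval on the right spans 0.

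Palm oil was not followed by a difference past the threshold in any of the 10 genes. In basal mice 0 of 10 differed in limma, as did 0% of all genes, of which 1134 had an unadjusted p under 0.05. The exact rank sum test also passed 0 genes, and 0 of the 10 had an unadjusted p under 0.05. The differences ran from -0.28 (Atf3) to 0.21 (Jun), with a median of -0.09 against 0.00 over all genes. Egr1 differed by -0.04 ± 0.39 (interval -0.83 to 0.74) and Fos by -0.13 ± 0.35. The intervals of all 10 lay within 2-fold in array values in either direction.

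In clamped mice 0 of 10 differed with palm oil in limma, as did 0% of all genes, of which 781 had an unadjusted p under 0.05, and the exact rank sum test passed 0 genes. Of the 10, 0 had an unadjusted p under 0.05. Differences ran from -0.42 (Jun, interval -0.9996 to 0.16) to 0.07 (Egr1, -0.72 to 0.86). Of the 10, 9 lay below 0, with a median of -0.26 against 0.00 over all genes. They share the same mice and are not 9 separate observations. The intervals of 9 genes lay within 2-fold, and that of Fos (-1.03 to 0.38) reached beyond it. For the interaction 0 of 10 passed in limma, as did 0% of all genes, of which 773 had an unadjusted p under 0.05. The values ran from -0.63 (Jun) to 0.12 (Egr1, SE 0.55), and the intervals of 5 genes lay within 2-fold. A p past no threshold does not show that the rises were equal.

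For the 9 genes that rose, both clamped means stood above both basal means. The control clamped mean was the highest for Fos, Jun, Junb, Jund, Atf3, Ier2, Ier3 and Btg2, and the palm oil clamped mean for Egr1. The 2 clamped means did not differ beyond their spread for any gene, nor did the 2 basal means. The lower clamped mean differed from the higher basal mean for all 9, from 0.73 for Jund (limma adjusted p = 0.0121) to 4.38 for Egr1 (7.41e-09). For Fosb no neighbouring means differed.

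Clamped mice differed among themselves more than basal mice in some of these genes. The SD of Fos was 1.34 in control clamped and 0.30 in control basal mice, and that of Egr1 1.24 and 0.73. Jund went the other way in control mice, with an SD of 0.17 in clamped and 0.40 in basal mice. These SDs were not tested against each other. Control clamped replicate 6 lay below its group mean in all 10 genes, most in Fos (-2.14), Egr1 (-1.48), Btg2 (-1.39) and Jun (-1.21). Control clamped replicate 7 was low in Egr1 (-2.07), Fos (-1.57) and Ier2 (-1.80) and above its group mean in Ier3 (0.83) and Atf3 (0.22). Palm oil clamped replicate 2 was the reverse. It was low in Ier3 (-1.84), Atf3 (-1.62) and Jun (-1.44) and above the mean in Egr1 (0.56) and Ier2 (0.17). Palm oil clamped replicate 4 was above its group mean in the 9 genes that rose, by up to 1.37 in Fos.

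**Figure D3:**
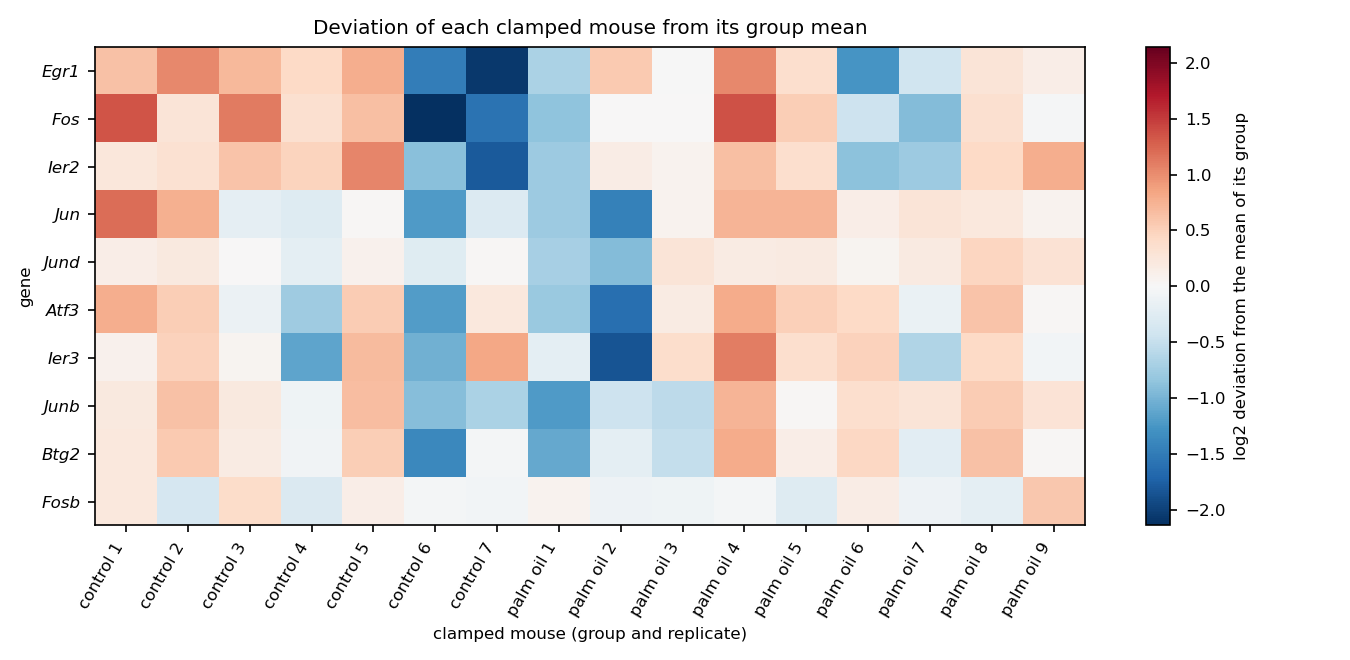
Log2 deviation of each of the 16 clamped mice from the mean of its own group, with genes as rows and mice as columns; red is above and blue below the mean. Control mouse 7 is low in the rows of Egr1, Fos and Ier2, and palm oil mouse 2 in those of Jun, Atf3 and Ier3.

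Across the 16 clamped mice the deviations of most genes from their group means were correlated. The pairs named below were chosen after their values were seen. Of 45 pairs, 22 had a Pearson r with an adjusted p under 0.05 over the 45 (permutation test, 100000 permutations of the mice within groups), and 17 passed by Spearman's rho too. Egr1 and Ier2 had r = 0.92 (permutation p = 8.00e-05, adjusted 0.00120) and rho = 0.76 (permutation p = 0.00182, adjusted 0.0102), with r = 0.84 without the 2 mice farthest from the median of Egr1. Egr1 and Fos had r = 0.88 (permutation p = 6.60e-04, adjusted 0.00424) and rho = 0.84 (permutation p = 0.00104, adjusted 0.00936), with r = 0.78 without 2 mice. Among the bZIP genes, Jun and Atf3 had r = 0.90 (permutation p = 2.00e-05, adjusted 4.50e-04) and rho = 0.79 (permutation p = 4.90e-04, adjusted 0.00551), with r = 0.79 without 2 mice. Atf3 and Ier3 had r = 0.89 (permutation p = 1.50e-04, adjusted 0.00169) and rho = 0.82 (permutation p = 3.80e-04, adjusted 0.00551), with r = 0.77 without 2 mice.

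Junb and Btg2 had r = 0.90 and rho = 0.88 (permutation p = 1e-05 each, the smallest these permutations can give, adjusted 4.50e-04 each), and r = 0.83 without 2 mice. Btg2 was also correlated with Atf3, with r = 0.74 (permutation p = 0.00159, adjusted 0.00795) and rho = 0.86 (permutation p = 6.00e-05, adjusted 0.00135), and r = 0.77 without 2 mice. The genes did not form separate sets, since Junb, Btg2 and Fos passed with genes of several of these pairs. Egr1 and Ier3 were among the lowest pairs. They had r = 0.05 (permutation p = 0.847, adjusted 0.898) and rho = 0.22 (permutation p = 0.438, adjusted 0.580), with r = 0.11 without 2 mice. Fosb had r between -0.05 and 0.13 with the others. In the 16 basal mice 0 of 45 pairs passed, with a median r of 0.09 against 0.55 in the clamped mice. The mice of a state share 1 normalization across arrays, and basal deviations are smaller and closer to the noise of low signals. Whether the correlations themselves differ between basal and clamped mice was not tested.

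**Figure D4:**
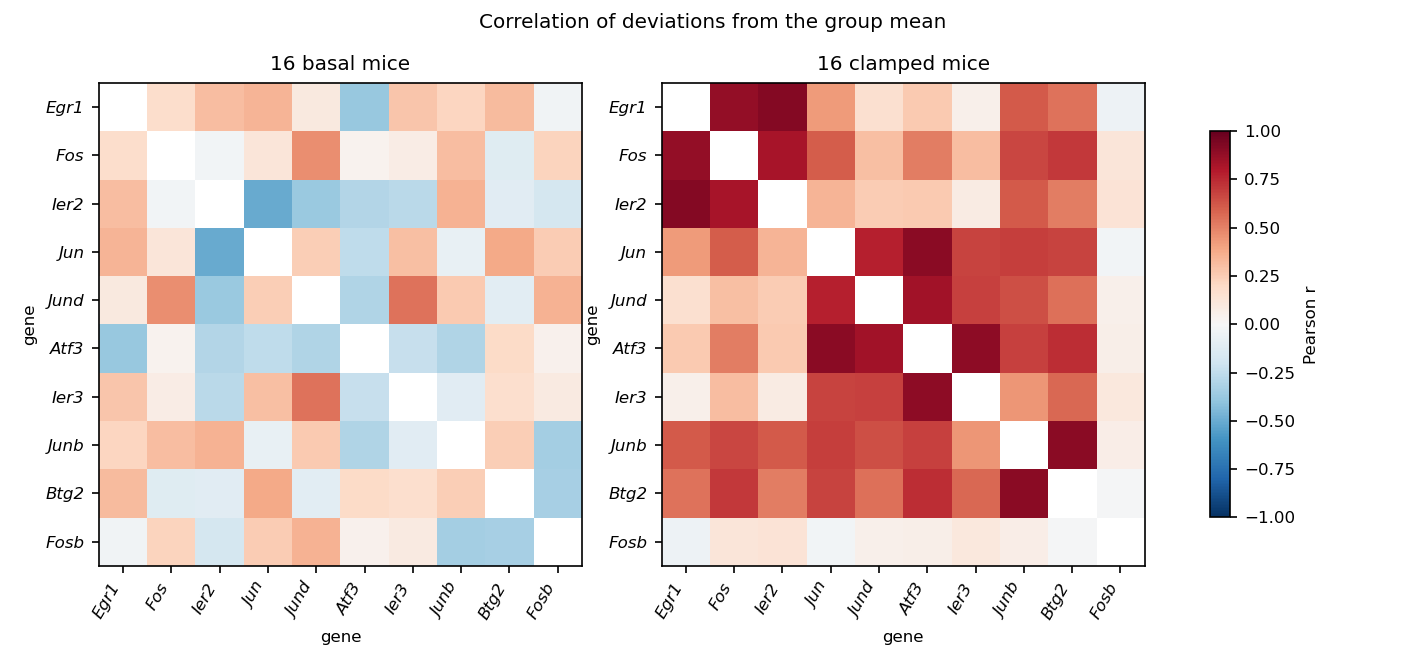
Pearson r between each pair of the 10 genes over deviations from the group mean, in 16 basal mice (left) and 16 clamped mice (right); both axes list the genes and the colour runs from -1 to 1. In the clamped mice r is highest for Egr1 with Ier2 (0.92), Jun with Atf3 and Junb with Btg2 (0.90 each), Junb and Btg2 have r above 0 with every gene except Btg2 with Fosb, and Fosb has r of at most 0.13.

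Outside the 10, the genes whose deviations from the group means were most like the mean standardised deviation of the 10, over 32 arrays and 11081 genes above the median level, were Pim3 (Pearson r = 0.74), Ppp1r15a (0.71), Zfp36l1 (0.70), Zfp36 (0.69) and Pex26 (0.68). In clamped mice alone r ran from 0.77 (Pex26) to 0.83 (Zfp36), and in basal mice alone from 0.25 (Pex26) to 0.41 (Pim3). As the highest of many, these values are descriptions. Ppp1r15a (GADD34), a phosphatase subunit of the stress response, rose with the clamp by 1.43 ± 0.20 in control and 1.07 ± 0.18 in palm oil mice. Pim3, a serine/threonine kinase, rose in palm oil mice (0.68 ± 0.20, limma adjusted p = 0.0332) and differed by 0.57 ± 0.23 in control mice (0.128). Pex26, a peroxisome assembly factor, differed by 0.20 ± 0.14 and -0.11 ± 0.13 between clamped and basal mice.

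Related genes were counted by list, and the lists too were chosen with earlier results of these data known. Of all 22180 genes, 1033 rose and 907 fell in control mice, and 835 rose and 843 fell in palm oil mice. Of 11 measured members of the rest of the AP-1 and MAF families, 4 rose and 0 fell in clamped control mice, with a list median of 0.32, and 3 rose and 0 fell in palm oil mice, with a median of 0.22. Fosl2, a FOS relative, rose by 1.39 ± 0.20 and 1.22 ± 0.18 in control and palm oil mice. Maff, a small MAF protein without an activation domain, rose by 1.02 ± 0.17 and 1.04 ± 0.15. Jdp2, which dimerises with JUN and represses, rose by 0.83 ± 0.20 and 1.05 ± 0.17. Mafk rose in control mice (0.57 ± 0.16, limma adjusted p = 0.0219).

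Of 5 genes of the rest of the EGR family and its co-repressors, 0 passed in control mice and 1 rose in palm oil mice, Egr2 (0.57 ± 0.18, limma adjusted p = 0.0471), which differed by 0.51 ± 0.21 in control mice (0.131). Nab2, a co-repressor that EGR1 itself induces, differed by 0.78 ± 0.26 in control mice (0.0589) and 0.58 ± 0.23 in palm oil mice (0.138). Egr3 and Egr4 lay between -0.15 and 0.15 in both. The group means of Egr3, and the basal means of Egr2, were below the median of all genes, where a difference in array signal does not measure the difference in RNA.

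Of 17 measured genes for serum response factor, its partners, CREB and MAP kinases, 5 rose and 1 fell in control mice (median 0.21), and 4 rose and 1 fell in palm oil mice (median 0.27). Crem, which encodes cyclic AMP-responsive activators and the repressor ICER, rose by 0.81 ± 0.17 and 0.68 ± 0.15. Mapkapk2, a kinase downstream of p38, rose by 0.60 ± 0.14 and 0.42 ± 0.12. Elk3, an ETS partner of serum response factor that can repress, was the gene that fell, by 0.88 ± 0.15 and 0.41 ± 0.13 on the log2 scale. Elk1, another ETS partner, rose by 0.77 ± 0.19 and 0.55 ± 0.17. Map2k4, a kinase upstream of JNK, and Mrtfa, a coactivator of serum response factor, rose in control mice (0.53 ± 0.13 and 0.71 ± 0.22), and Mapk14, the p38 kinase, rose in palm oil mice (0.39 ± 0.10). Srf itself differed by 0.38 ± 0.14 in control (limma adjusted p = 0.0940) and 0.28 ± 0.12 in palm oil mice (0.200).

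Other immediate early genes moved in the same direction as the 10 in most of the cases that passed. Of 29, 17 rose and 1 fell in control mice (median 0.52), and 16 rose and 0 fell in palm oil mice (median 0.53). Gadd45b, a stress sensor, rose by 2.24 ± 0.28 in control mice, Klf6, a zinc finger factor, by 1.69 ± 0.24, and Zfp36l1, which destabilises AU-rich mRNAs, by 1.19 ± 0.15. In palm oil mice Dusp1, a MAP kinase phosphatase, rose by 1.79 ± 0.19, Ccn2 (connective tissue growth factor) by 1.46 ± 0.17 and Plk3, a polo-like kinase, by 1.79 ± 0.23. Myc, the growth regulator, was the gene that fell, in control mice by 0.61 ± 0.19 (limma adjusted p = 0.0379). In palm oil mice it was higher after the clamp by 0.33 ± 0.17, which did not pass (0.300). Its interaction of 0.94 ± 0.26 did not pass (limma adjusted p = 1.00).

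Of 12 measured genes known as later targets of AP-1 or EGR factors, 2 rose in control mice (median 0.13) and 3 in palm oil mice (median 0.19), and 0 fell. Hmox1, heme oxygenase 1, rose by 2.27 ± 0.22 and 2.00 ± 0.20. Ccl2, a monocyte chemokine, rose by 1.84 ± 0.57 and 1.65 ± 0.50. Plaur, the urokinase receptor, rose in palm oil mice (1.04 ± 0.28) and differed by 0.95 ± 0.32 in control mice (limma adjusted p = 0.0554). In all 5 lists 0 genes differed between palm oil and control mice, basal or clamped.

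**Figure D5:**
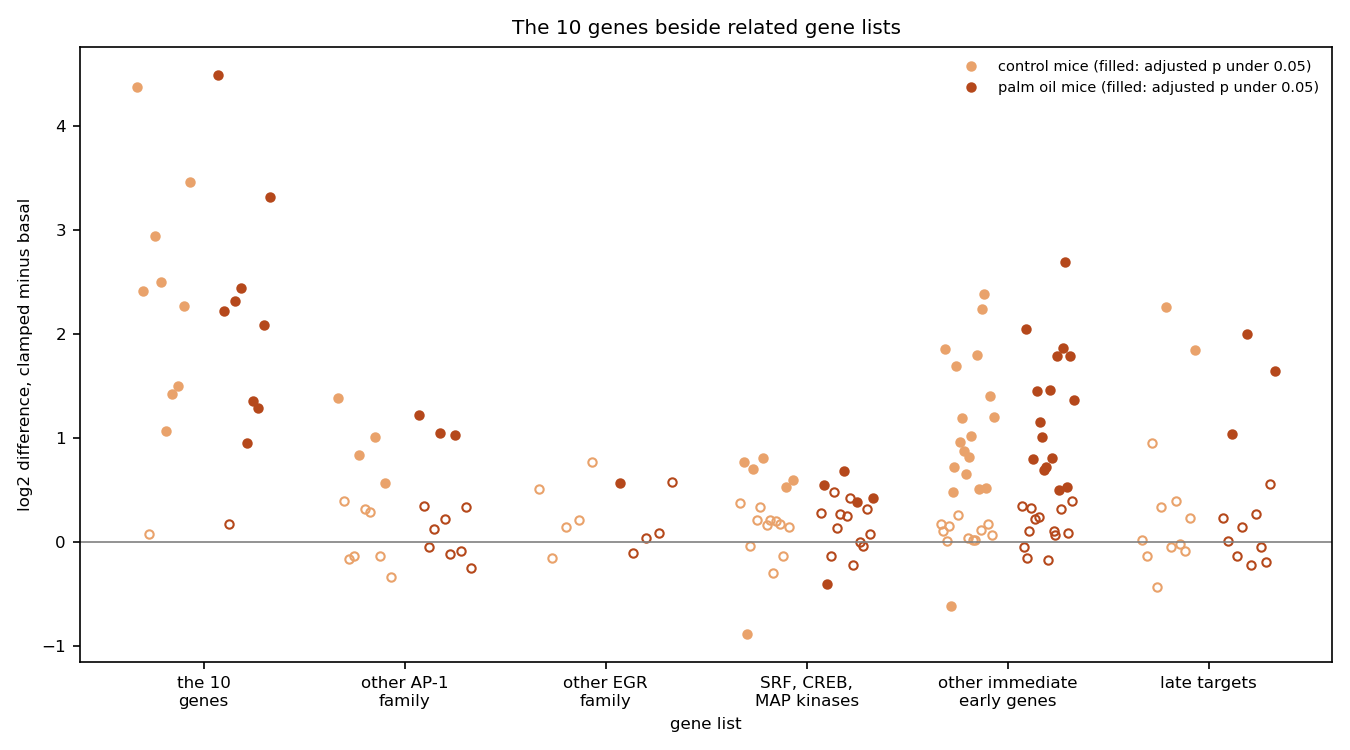
Log2 difference, clamped minus basal, of each measured gene of the 10 and of 5 related lists, in control (light) and palm oil mice (dark); filled points passed the test. Of the 10 genes, Fosb is the open point near 0, and 17 of the 29 other immediate early genes rose in control mice.

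Array medians lay between 1.65 and 1.77, and no arrays held identical values. Hepatocyte markers were bright in all groups (2 of 7 rose in control mice and 1 after palm oil), with a mean log2 value between 10.1 and 10.5. Neutrophil markers moved with the clamp: 6 of 9 rose in each pair of groups, and their mean ran from 1.74 to 2.46 in basal and from 2.73 to 3.73 in clamped arrays. Of 8 Kupffer cell or macrophage markers 3 rose in control mice and 2 after palm oil, and their mean ran from 5.02 to 5.59 in basal and from 5.28 to 6.03 in clamped arrays. Of 8 measured markers of T, B or NK cells 0 rose and 1 fell, in palm oil mice, and their mean stayed between 1.23 and 1.77. Sinusoidal endothelial markers (1 of 8 rose, 1 fell in each pair) ran from 5.87 to 6.32, and stellate cell markers (2 of 8 rose and 1 fell in palm oil mice) from 4.02 to 4.70. Cholangiocyte markers (1 of 5 rose in each pair) ran from 1.67 to 2.35, and the 1 measured erythroid marker from 0.93 to 2.46. Of 9 measured acinar markers 0 passed in either pair, with a median difference of -3.41 in control mice and -2.95 after palm oil. All 9 lay lower in clamped mice with an unadjusted limma p under 0.05 in both pairs. Their mean had group medians of 8.21 (control) and 8.70 (palm oil) in basal and 2.34 and 2.13 in clamped arrays, with ranges of 1.84 to 10.2 and 1.73 to 9.52, and it was above 6 in 9 of 16 basal and 3 of 16 clamped arrays. The 7 basal arrays named above had interquartile ranges from 2.44 to 2.54, and the remaining 9 basal arrays from 2.72 to 2.96. The part of these shifts in the rises of the 10 genes was not tested beyond the left-out arrays given above, and with the acinar level, or membership of those 7 arrays, as a term in the fit the count of members that rose was 9 in each pair.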

How the data were processed

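Total RNA was extracted with DNase treatment, amplified and biotin-labelled, per the labels' protocols. The deposited values are log2 expression values. RMA and Affymetrix Expression Console, version 1.3.0.187, are the tools that the submitters' processing notes list, and the values were used as the authors deposited them. Of 41345 probe sets, a platform annotation gave 23521 a single symbol, 1814 several and 16010 none. The probe set with the highest mean over all arrays stood for a gene (1082 genes had several), which left 22180 genes. The number of arrays, 32, limits the precision.

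Groups came from the sample titles. limma 3.58.1 (R 4.3.3) was fitted to all genes with 1 mean per group (28 residual degrees of freedom), tested on simulated data, and adjusted over all genes of a contrast. Each array is a separate mouse. Intervals are at 95%. The members, the gene lists and the motifs were chosen with earlier results of these data known. Named beside the 10 members were, of each list, genes with the smallest p among those that passed (up to 3 per pair of groups), those going against a list's direction, and the 5 genes most like the members. Outside that rule, Mafk, Elk1, Map2k4, Mrtfa, Srf, Nab2, Egr3 and Egr4 were named after their values were seen. Listed genes without a single-symbol probe set are not analysed here. Titles number mice within groups, and the median correlation of deviations between same-numbered arrays was 0.01 over 44 pairs.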

Additional observations from a re-analysis of the deposited data

Results flagged for a closer look

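One value stood apart by Dixon's test, among 40 groups of a gene tested, where chance gives about 1 in 20. Btg2 in control clamped replicate 6 was 7.07, below the other control clamped mice, of which the nearest was 8.37. The gap was 0.669 of the range of the group, against a critical value of 0.568. Without that array the Btg2 rise in control mice was the highest of its left-out values, 3.69.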

How the results depend on the processing

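Under 49 alternatives (47 for the interaction) the counts of members that passed stayed at 7 to 9 for clamped minus basal mice, and at 0 for both palm oil comparisons and the interaction. Leaving out each array in turn gave 9 in both clamp comparisons. No member past the threshold changed sign in them. The calls that were lost are those of Atf3 and Ier2 given in the report, and their cause was not tested. Among values that passed in neither setting, the sign changed in 21 of 489 for palm oil in basal mice and in 14 of 489 in clamped mice. It changed in 28 of 469 for the interaction and in 1 of 48, all of Fosb, for the clamp in control mice. With the replicate block, 9, 9, 0, 0 and 0 members passed, and it changed no call. Same-numbered arrays had correlations from -0.23 to 0.29, over 0.1 in 11 of 44 pairs. These correlations cannot show whether same-numbered mice share more than a number. Counts over all genes moved more: 1940 genes differed in control mice, against 1120 in the exact rank sum test, 1083 at 1.5-fold or more, 1026 without basal animals 44 or higher and 993 when acinar-rich arrays were left out. In palm oil mice 1678 differed, against 806 at 1.5-fold or more and 736 without those arrays. One gene, no member, passed for palm oil in basal mice without control basal replicate 1, without replicate 3 or without the acinar-rich arrays, and 1 for the interaction without control basal replicate 1. Fosb, below the median level, was not tested where only brighter genes were kept. Signals near the background limit what can be said of Fosb, and of Fos and Atf3 in basal mice.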
